A study of Mus musculus with 4 samples.

Results

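The genes described here are 35 mouse genes that limit oxidative damage or bind metal ions, out of 56493 genes in the deposited count table. They were picked by name as the NRF2 pathway, glutathione and thioredoxin systems, peroxiredoxins, superoxide dismutases, catalase, ferritins and metallothioneins, and each name matched 1 row. The cells came from the retina of wild-type mice and were sorted by fluorescence as retinal ganglion cells (RGC), the neurons that send their axons into the optic nerve. Per the labels, every library comes from eyes given an AAV2 vector, with the optic nerve crushed a month after the injection into the vitreous. In 2 libraries the vector was AAV2.CrAT, meant to raise carnitine acetyltransferase, an enzyme of acetyl group and carnitine metabolism. In the other 2 it was AAV2.MCS, an abbreviation that the labels do not explain. All 4 titles also carry the tag NCd8, which the labels do not explain, and they give no time after the crush in words. No uncrushed group is used here. The labels give neither the promoter of the vector nor the age of the animals or their number per library, and they do not say that the replicates were separate animals. P-values therefore measure only the spread between these libraries, which may be technical.

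NRF2, encoded by Nfe2l2, is a transcription factor that KEAP1 holds in the cytoplasm and marks for degradation. When oxidants or electrophiles modify KEAP1, NRF2 enters the nucleus and binds antioxidant response elements in the promoters of detoxifying genes. Peroxides are removed by peroxiredoxins, which take their electrons from thioredoxin, and by glutathione peroxidases, which use glutathione. Ferritin stores iron in a form that cannot feed the production of radicals, and metallothioneins bind zinc and copper and are induced by the zinc sensor MTF1 through metal response elements. In the retina Mueller glia are known as a source of glutathione for neurons and as a site of metallothionein expression.

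Promoter sequences are shown for the genes on which the results turn. RefSeq start sites on GRCm38.p6 gave 37 promoter windows for 30 of the 35 genes, each from 250 bases before to 50 bases after the start. Hmox1, Gclc, Gsr, Prdx6 and Sod3 were not in that table. The core of the antioxidant response element, TGACNNNGC, was searched on both strands. It occurred in 7 of the 37 windows, against 12.4% of all 32851 promoter windows of the same length. The 7 matches are given 5′ to 3′ on the strand of the gene, with the core in capitals and 10 bases on either side. Where the core lies on the opposite strand, its reverse complement is in capitals.
Nfe2l2 (chr2:75704885-75704913, minus strand): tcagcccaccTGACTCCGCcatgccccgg
Gclm (chr3:122245413-122245441, plus strand): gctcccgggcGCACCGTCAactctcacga
Txnrd1 (chr10:82859104-82859132, plus strand): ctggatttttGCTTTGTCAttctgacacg
Srxn1 (chr2:152105542-152105570, plus strand): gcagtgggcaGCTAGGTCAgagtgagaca
Prdx1 (chr4:116685456-116685484, plus strand): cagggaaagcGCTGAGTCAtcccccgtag
Sod1 (chr16:90220696-90220724, plus strand): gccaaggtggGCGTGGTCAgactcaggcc
Mt2 (chr8:94172529-94172557, plus strand): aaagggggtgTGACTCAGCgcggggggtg
Nqo1 and Osgin1, the NRF2-induced genes with the lowest CrAT to MCS ratios below, had no match in these windows. Their upstream 250 bases follow in lower case.
Nqo1 (chr8:107403206-107403455, minus strand): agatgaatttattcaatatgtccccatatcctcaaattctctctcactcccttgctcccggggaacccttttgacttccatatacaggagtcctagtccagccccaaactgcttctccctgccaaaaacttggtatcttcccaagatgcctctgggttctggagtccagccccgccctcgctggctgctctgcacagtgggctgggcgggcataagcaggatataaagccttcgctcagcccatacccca
Osgin1 (chr8:119436897-119437146, plus strand): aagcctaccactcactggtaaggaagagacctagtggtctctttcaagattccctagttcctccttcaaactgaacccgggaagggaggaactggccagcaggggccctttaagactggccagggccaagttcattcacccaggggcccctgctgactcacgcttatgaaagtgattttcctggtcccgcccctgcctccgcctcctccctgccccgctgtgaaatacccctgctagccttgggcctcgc

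The core of the metal response element, TGCACNC or TGCGCNC on either strand, was present in 10 of the 37 windows and in 25.7% of all promoter windows. Windows of the same gene can overlap and share a match, as those of Gstm1 do. By gene the core was present in 9 of 30. All 3 metallothionein windows held it. Mt2 had 4 matches, Mt1 had 3 and Mt3 had 1, and at least 3 matches were found in 1.97% of all windows. The upstream 250 bases of these genes, which lie close together on chromosome 8, are printed with matches before the start site in capitals. The other matches lay after the RefSeq start site used here, and bases more than 50 after it were not searched. The element does not overlap the antioxidant core of Mt2.
Mt1 (chr8:94178839-94179088, plus strand): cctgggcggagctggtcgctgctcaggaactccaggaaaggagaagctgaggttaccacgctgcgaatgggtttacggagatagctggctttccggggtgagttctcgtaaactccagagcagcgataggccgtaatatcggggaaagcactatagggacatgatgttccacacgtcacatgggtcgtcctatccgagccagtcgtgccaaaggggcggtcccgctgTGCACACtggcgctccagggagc
Mt2 (chr8:94172368-94172617, plus strand): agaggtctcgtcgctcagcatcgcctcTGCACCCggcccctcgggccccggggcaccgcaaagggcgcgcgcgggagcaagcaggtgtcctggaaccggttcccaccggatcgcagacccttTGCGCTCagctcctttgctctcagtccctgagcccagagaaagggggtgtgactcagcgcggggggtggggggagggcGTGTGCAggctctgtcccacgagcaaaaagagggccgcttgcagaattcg
Mt3 (chr8:94152357-94152606, plus strand): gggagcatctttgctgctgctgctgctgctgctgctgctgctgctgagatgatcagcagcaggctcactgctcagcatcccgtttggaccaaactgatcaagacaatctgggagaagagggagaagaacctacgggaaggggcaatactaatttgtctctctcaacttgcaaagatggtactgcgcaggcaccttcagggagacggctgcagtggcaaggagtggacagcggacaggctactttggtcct
A match is a description of the letters only.

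The libraries held 24494253 to 27097438 counts, and a limit of 3 counts corresponded to 0.109 to 0.126 CPM, that is, counts scaled to a common library size, for counting error only. Transcripts that mark other retinal cells were abundant. Summed over the lists, 13 rod markers reached 30110 to 55251 CPM, 18 Mueller glia markers 16443 to 26378 CPM and the 13 of 15 ganglion cell markers that passed the filter on low counts 219.7 to 437 CPM. Rbpms, which marks ganglion cells, was 2.75 to 8.58 CPM, against 4421 to 10228 CPM for the rod transducin Gnat1. Pou4f2, the lowest of the ganglion cell list, had 0 counts in 3 libraries and 6 in MCS replicate 2. Other markers of that list had more, such as Thy1 with 273 to 831 counts and Nefl with 532 to 1904. Ganglion cell markers were thus present but far below the sums of rod and Mueller glia markers, and the values below are those of a mixture. Fewer cells of a type and less RNA per cell cannot be told apart in it. Some libraries stood apart. MCS replicate 1 had 1487 CPM of nuclear retained RNA, against 415 to 549 CPM in the others, and CrAT replicate 2 had 83.8 CPM of erythrocyte transcripts, against 6.48 to 7.67 CPM. MCS replicate 1 was also the lowest in cytosolic ribosomal protein transcripts, at 5168 CPM against 6601 to 7667 CPM for a list of 32 genes. In both groups replicate 2 held fewer rod and more amacrine transcripts than replicate 1. Crat itself was 72.5 and 49.9 CPM in the CrAT libraries and 38.3 and 47.7 CPM in the MCS libraries (edgeR quasi-likelihood test, adjusted p = 1).

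All 35 genes were detected and passed the filter on low counts. Per kilobase of exon, Mt1 was the most abundant, at a mean of 1779.9 FPKM over the 4 libraries, and the ferritin light chain Ftl1 followed at 624 FPKM. The lipid peroxide reductase Gpx4, at 378 to 543 FPKM, and the ferritin heavy chain Fth1, at 332 to 474 FPKM, overlapped between libraries and have no clear order. Prdx6 (250.5 FPKM), Mt2 (222 FPKM) and Gstp1 (187 FPKM) came next by their means. The lowest were Sod3 at 0.745 FPKM and then Nqo1, Gss, Gclc and Osgin1, at 4.66 to 5.76 FPKM. The plot of levels by library shows this range of more than 3 orders of magnitude.

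**Figure D1:**
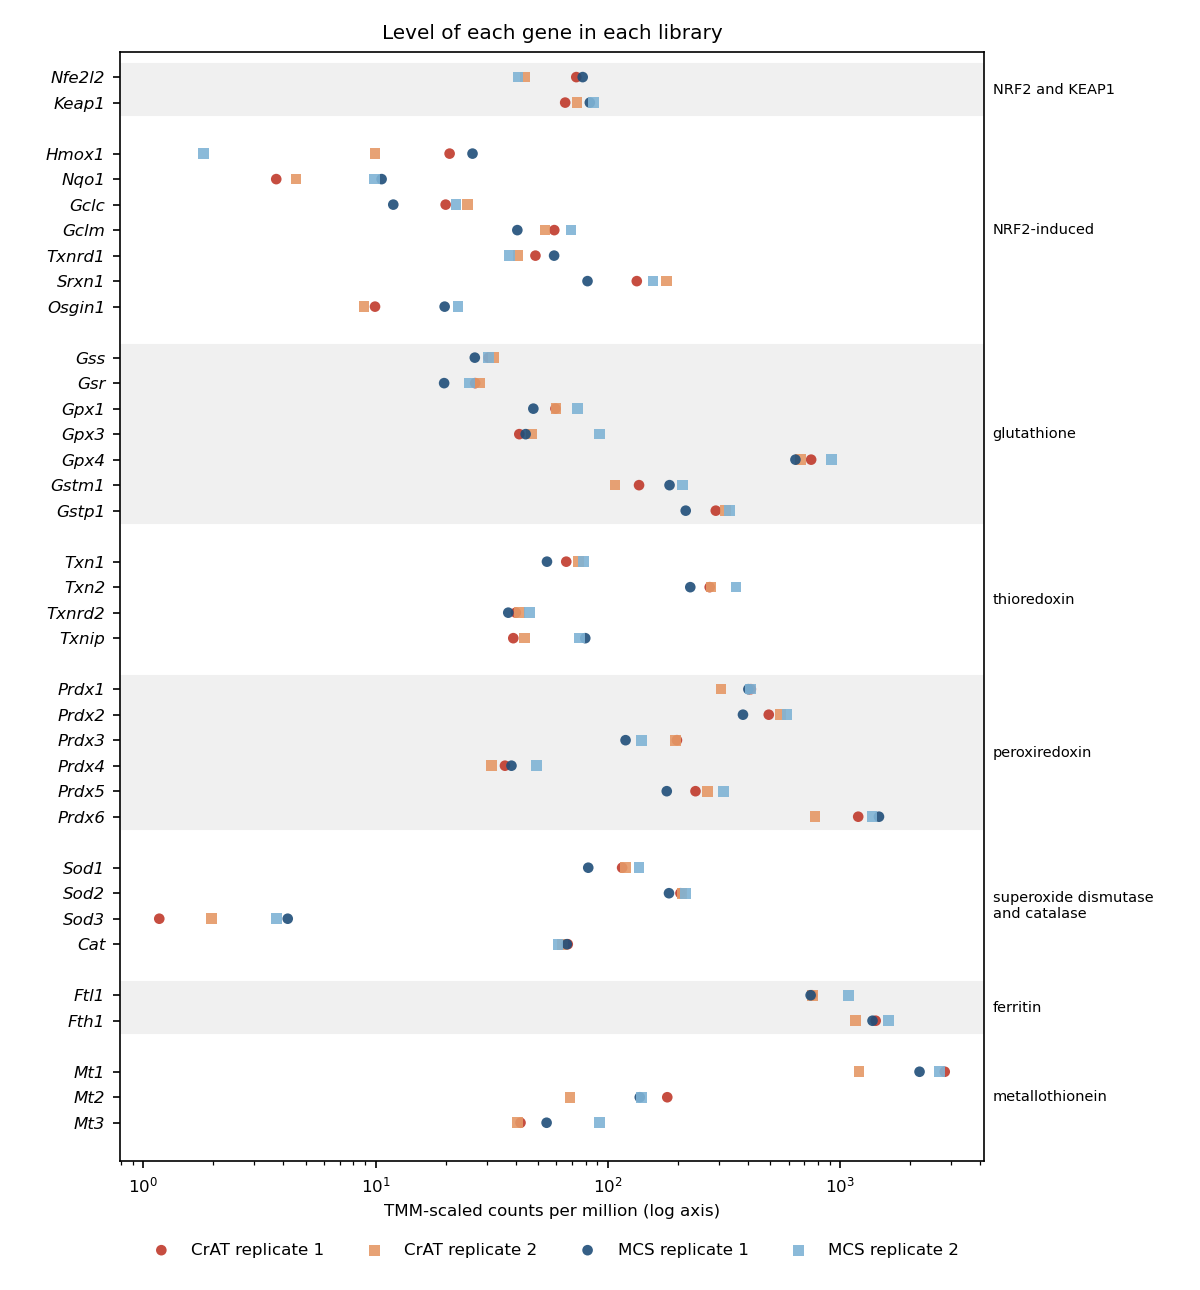
Level of each of the 35 genes in each library, in TMM-scaled CPM on a log axis. Circles are replicate 1 and squares replicate 2, in red tones for CrAT and blue for MCS, and grey bands separate the gene groups. For Nqo1, Osgin1, Txnip and Sod3 both red points lie left of both blue points, and Hmox1 spans 1.81 to 26.1 CPM.

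No gene of the group differed between CrAT and MCS at an adjusted p of 0.05, by edgeR's quasi-likelihood test or by DESeq2. Over all 19638 genes tested by edgeR the share called was 0%, and for DESeq2 it was 0.266% of 18819 genes. At an unadjusted p under 0.05 edgeR had 4 of the 35 lower in CrAT, Nqo1, Osgin1, Txnip and Sod3. That is 11.4%, beside 2.87% of all genes. It had 0 higher, beside 1.28% of all genes. DESeq2 also had 4, Nqo1, Osgin1, Txnip and Mt3, with a smallest adjusted p of 0.55. Over all genes DESeq2 had 967 at an unadjusted p under 0.05 in either direction, where 18819 genes received an adjusted p. In 9 genes (25.7%) the CrAT values were both lower than either MCS value, which was so for 16.6% of all genes. In 3 genes (8.57%), Gss, Gsr and Prdx3, both lay above, against 15.0% of all genes. The other 23 overlapped. The median log2 fold change over the 35 was -0.07, with 14 above 0 and 21 below, and over all genes it was 0.01, with 50.6% above 0 and 49.4% below. The members were chosen with earlier results of these data known, so these shares are a description.

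Most members differed little between the groups. The log2 fold change was within 0.2 of 0 for 18 genes and within 0.5 for 26. The median absolute log2 fold change, 0.18, was about the size of the median gap between the CrAT replicates, 0.17, and smaller than that between the MCS replicates, 0.36. In 9 genes the difference between groups was larger than both replicate gaps. Of these Nqo1, Osgin1, Txnip, Sod3, Mt3, Gstm1, Prdx4 and Keap1 were lower in CrAT and Prdx3 was higher. Leaving out each library in turn turned the sign of 21 genes at least once, and 14 kept it, 10 lower and 4 higher. These counts were not made over all genes, so they do not show that the members differ from other genes.

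**Figure D2:**
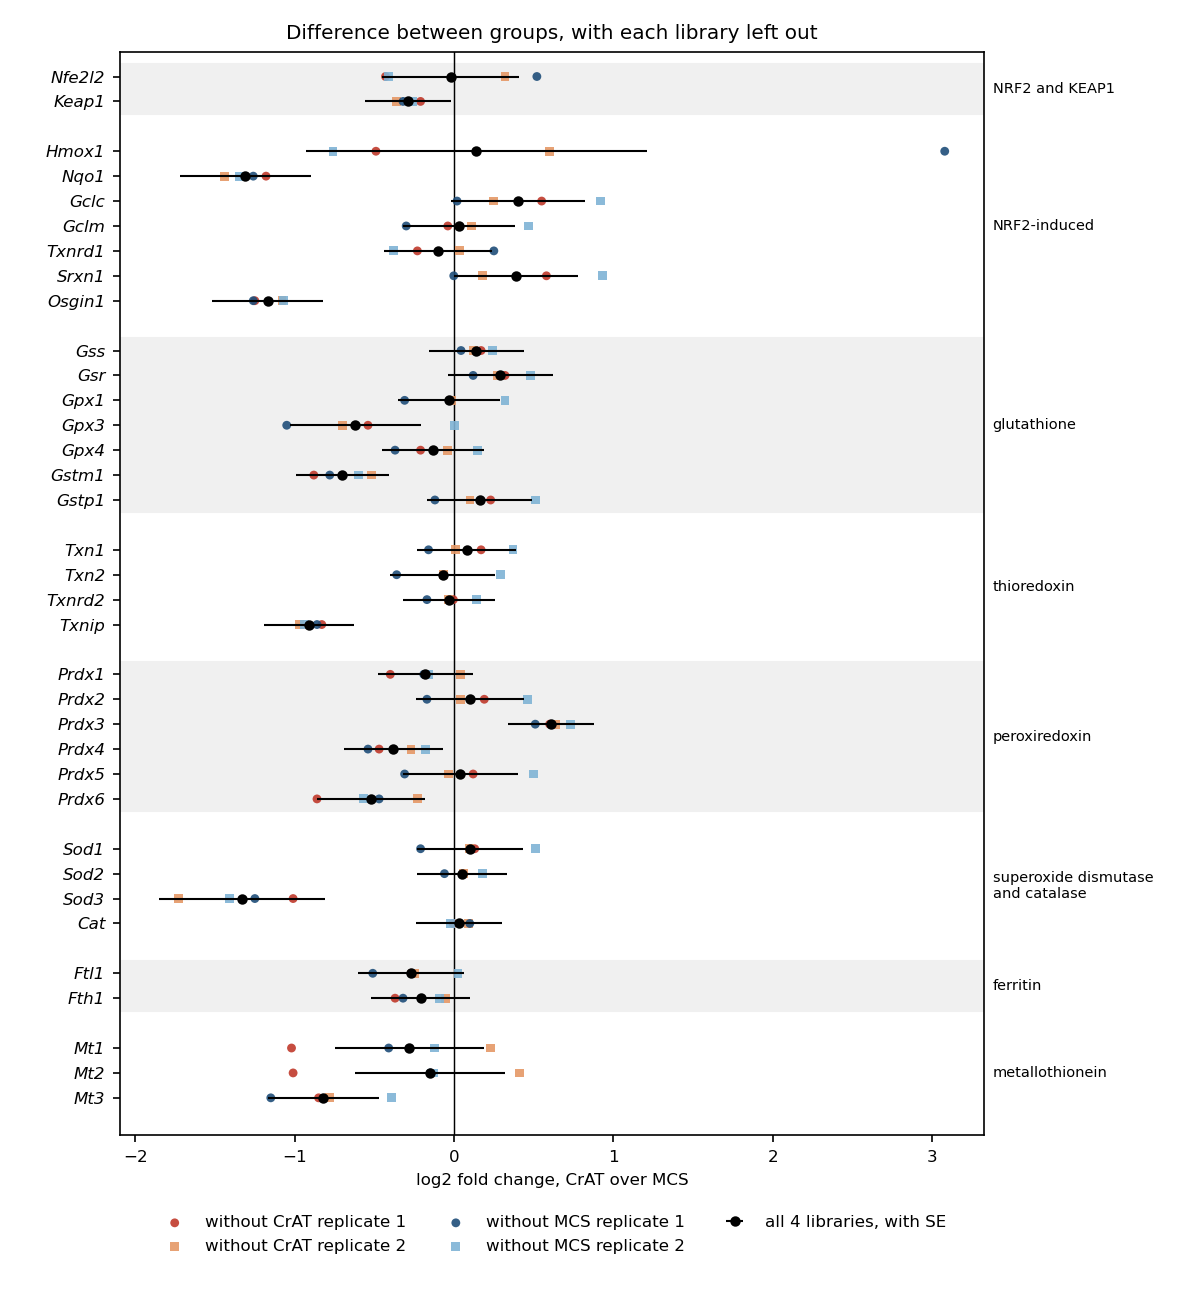
Log2 fold change of each gene, CrAT over MCS. Black points with bars are the fit to all 4 libraries with its SE, and coloured points are fits without the library named in the key. Nqo1, Osgin1, Txnip, Sod3 and Mt3 stay below 0 and Prdx3 above 0 in all 5 fits, while Hmox1 moves between -0.76 and 3.08.

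Of the regulators of the pathway, Nfe2l2 overlapped between the groups and Keap1 did not. Nfe2l2 was 73 and 43.9 CPM with CrAT and 77.8 and 40.9 CPM with MCS, replicate 1 first here and below. Replicate 1 was higher than replicate 2 in both groups, by 1.66 times in CrAT and 1.9 times in MCS, and the group means of 58.4 ± 20.6 and 59.3 ± 26.1 CPM (SD, n = 2 each) were almost equal. Keap1, its inhibitor, was 65.4 and 73.5 CPM with CrAT and 83.5 and 86.8 CPM with MCS. The CrAT values were the lower ones, with no overlap, at a log2 fold change of -0.29 (SE 0.27). Of the exon bases of Keap1, 10.9% are shared with an antisense long noncoding RNA, and the library kit does not mark the strand, so its reads cannot be told apart there.

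The 7 NRF2-induced genes had no shared direction. Their log2 fold changes ran from -1.31 to 0.40 with a median of 0.03, with 4 above 0 and 3 below, and their summed level was 295 and 321 CPM with CrAT and 249 and 319 CPM with MCS. Nqo1, a quinone reductase that is widely used as a readout of NRF2 activity, was 3.73 and 4.53 CPM with CrAT and 10.6 and 9.89 CPM with MCS. The MCS mean was 2.48 times the CrAT mean, and the libraries of the groups did not overlap (log2 fold change -1.31, SE 0.41, unadjusted p = 0.017, adjusted p = 1 in edgeR). Osgin1, an oxidative stress induced growth inhibitor, was 9.93 and 8.9 CPM with CrAT and 19.8 and 22.6 CPM with MCS. Here too the groups did not overlap, and the MCS mean was 2.25 times that of CrAT (log2 fold change -1.17, SE 0.35, unadjusted p = 0.0151, adjusted p = 1 in edgeR). Both genes were low, with 89 to 273 counts of Nqo1 and 236 to 624 counts of Osgin1 in a library.

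The other NRF2-induced genes overlapped between the groups. Srxn1, which repairs overoxidised peroxiredoxins, was 133 and 178 CPM with CrAT and 81.6 and 156 CPM with MCS, so that MCS replicate 1 was the lowest and CrAT replicate 2 the highest. Gclc, the catalytic subunit of the enzyme that starts glutathione synthesis, was 20 and 24.9 CPM with CrAT and 11.9 and 22.2 CPM with MCS. Gclm, its modifier subunit, was 58.7 and 53.6 CPM against 40.7 and 69.3 CPM. MCS replicate 1 was again the lowest for both subunits. Without that library the log2 fold change was 0.02 for Gclc, against 0.40 with it, and -0.30 for Gclm, against 0.03. Txnrd1, the cytosolic thioredoxin reductase, was 48.7 and 41 CPM with CrAT and 58.6 and 37.7 CPM with MCS, with replicate 1 higher in each group.

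Hmox1, the inducible haem oxygenase, which frees iron from haem, varied most between the MCS replicates. It was 20.8 and 9.92 CPM with CrAT and 26.1 and 1.81 CPM with MCS. MCS replicate 1 was 14.4 times MCS replicate 2, with 650 against 50 counts, and CrAT replicate 1 was 2.1 times CrAT replicate 2. The CrAT values lay between those of MCS, and the log2 fold change was 0.14 (SE 1.07). It was 3.08 without MCS replicate 1 and -0.76 without MCS replicate 2. Of 14 markers of microglia and macrophages, cells that express Hmox1 after injury, the 10 that passed the filter on low counts came to a total of 40.6 and 39 CPM with MCS and of 41.3 and 34.1 CPM with CrAT. Of 12 endothelial and mural markers Cdh5 was at 0 in every library, and the 9 that passed came to 927 and 519.5 CPM with MCS and 509 and 402 CPM with CrAT. Most of this sum was Kdr and Flt1, with 14757 and 6059 counts in MCS replicate 1. Pecam1 had 37 and 25 counts in CrAT and 10 and 15 in MCS. Of the 9, 3 had a log2 fold change above 0 and 6 below. The part of these cells in the Hmox1 values was not tested.

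**Figure D3:**
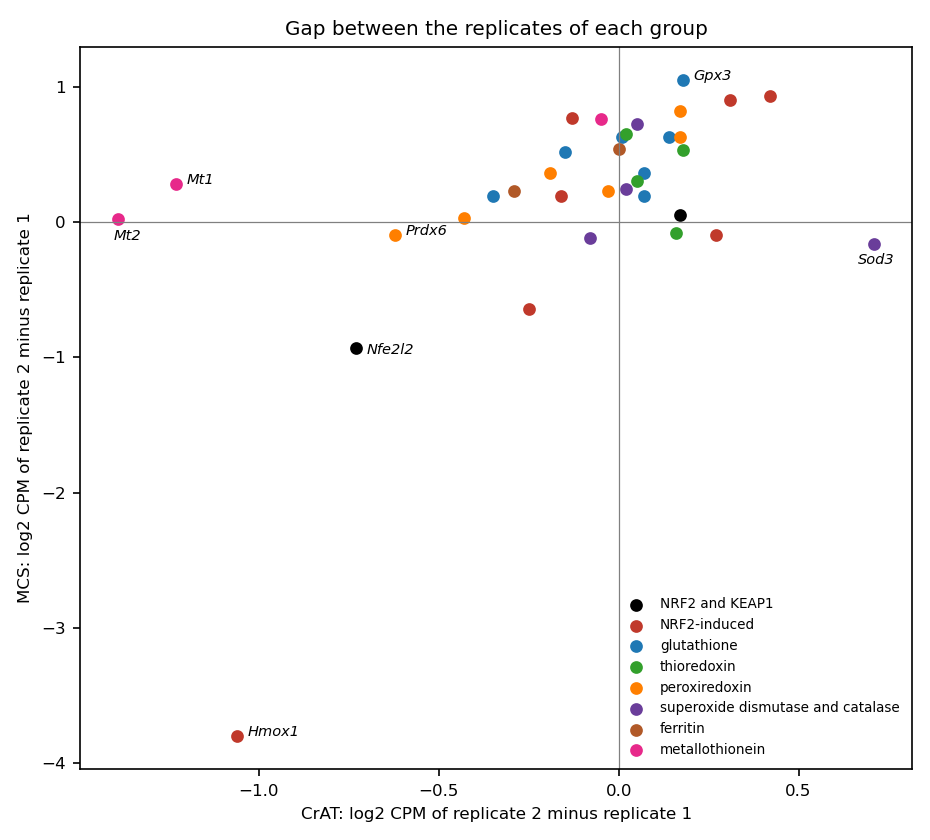
Gap between replicates for each of the 35 genes, as log2 CPM of replicate 2 minus replicate 1 in CrAT (x axis) and in MCS (y axis), coloured by gene group. Most points lie above the horizontal line, since 27 of 35 genes were higher in MCS replicate 2 than in MCS replicate 1. The same count was not made over all genes. The median MCS gap was 0.28 over the 35 genes and 0.55 over 32 cytosolic ribosomal protein genes, which are not plotted. Hmox1 lies at -1.06 and -3.80, and Mt1 and Mt2 stand apart at -1.23 and -1.39 on the CrAT axis only.

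Of the 7 genes of the glutathione system Gstm1 was lower and Gss and Gsr were higher in both CrAT libraries, and the other 4 overlapped. The median log2 fold change was -0.03, with a range from -0.70 to 0.29, and the median was -0.31 without MCS replicate 1 and 0.24 without MCS replicate 2. Gstm1, a mu class glutathione S-transferase, was 136 and 107 CPM with CrAT and 184 and 209 CPM with MCS. The groups did not overlap, at a log2 fold change of -0.70 (SE 0.29, unadjusted p = 0.0506, adjusted p = 1 in edgeR). Gpx3, the secreted glutathione peroxidase, was 41.5 and 46.9 CPM with CrAT and 44.2 and 91.9 CPM with MCS. Its log2 fold change of -0.62 came from MCS replicate 2, without which it was 0.0041. Gpx4 was 749 and 674 CPM with CrAT and 641 and 919 CPM with MCS, and the CrAT values lay inside the MCS range.

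Gss, which completes glutathione, was 30.6 and 32.2 CPM with CrAT and 26.7 and 30.5 CPM with MCS. Gsr, which reduces oxidised glutathione, was 26.8 and 28.1 CPM with CrAT and 19.7 and 25.3 CPM with MCS. Both had the CrAT libraries above the MCS libraries, and for Gss the nearest values, 30.6 and 30.5 CPM, were almost equal. Their log2 fold changes were 0.14 (SE 0.30) and 0.29 (SE 0.33). Gpx1, a peroxidase of the cytosol and mitochondria, was 59.4 and 59.7 CPM with CrAT and 47.7 and 74.1 CPM with MCS, and 84.0% of its exon bases are shared with an antisense noncoding gene. The pi class transferase Gstp1 was 291 and 321 CPM with CrAT and 216 and 333 CPM with MCS. It has a near-identical neighbour, Gstp2, with 1006 to 1850 counts beside 5368 to 9197 for Gstp1, and how the authors divided shared reads is not known here.

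In the thioredoxin system only Txnip had groups that did not overlap. Txnip binds and inhibits thioredoxin and also restrains glucose uptake. It was 39.1 and 43.7 CPM with CrAT and 79.8 and 75.5 CPM with MCS, or 41.4 ± 3.25 and 77.7 ± 3.03 CPM (SD, n = 2 each). The MCS mean was 1.88 times the CrAT mean (log2 fold change -0.91, SE 0.28, unadjusted p = 0.0155, adjusted p = 1 in edgeR). The value stayed between -0.97 and -0.83 whichever library was left out. An antisense gene, Gm15441, shares 19.4% of its exon bases and had 162 and 213 counts in CrAT and 317 and 334 in MCS, so reads of these genes cannot be told apart in the shared part. Cytosolic thioredoxin (Txn1) was 66.1 and 74.8 CPM with CrAT and 54.6 and 78.6 CPM with MCS. Mitochondrial thioredoxin (Txn2) was 274 and 278 CPM with CrAT and 226 and 356 CPM with MCS, and its reductase Txnrd2 was 40.1 and 41.5 CPM against 37.2 and 46 CPM. For all of these the MCS replicates enclosed both CrAT values.

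Among the 6 peroxiredoxins only the mitochondrial Prdx3 had both CrAT values higher than either MCS value. Prdx3 was 198 and 195 CPM with CrAT and 119 and 139 CPM with MCS. The groups did not overlap, the ratio of the means was 1.53, and the log2 fold change of 0.61 (SE 0.27, unadjusted p = 0.0655, adjusted p = 1 in edgeR) was the highest of the 35 genes. It was 0.51 to 0.73 in the fits without 1 library. Prdx6, a peroxidase of phospholipid hydroperoxides that is abundant in glia, was 1194 and 778 CPM with CrAT and 1467 and 1368 CPM with MCS. Prdx4, of the endoplasmic reticulum, was 36 and 31.5 CPM with CrAT and 38.4 and 49.3 CPM with MCS. Both were lower in each CrAT library, with log2 fold changes of -0.52 (SE 0.34) and -0.38 (SE 0.31). CrAT replicate 2 was the lowest library for both, and Prdx6 had -0.23 without it.

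The remaining peroxiredoxins overlapped. Prdx1 was 412 and 307 CPM with CrAT and 402 and 411 CPM with MCS. Prdx2, which is abundant in neurons and in red blood cells, was 492 and 552 CPM with CrAT and 381 and 590.2 CPM with MCS. Of its exon bases, 5.8% are shared with the antisense gene Rnaseh2a and 5.67% with the antisense gene Junb. Erythrocyte transcripts were highest in CrAT replicate 2, at 83.8 CPM, and their part in the Prdx2 values was not tested. Prdx5, found in mitochondria and peroxisomes, was 238 and 268 CPM with CrAT and 179 and 315 CPM with MCS. Of the exon bases of Prdx5, 19.1% are shared with the antisense gene Trmt112, which had 1837 to 3736 counts. Reads cannot be told apart there. The list as a whole had 3 genes above 0 and 3 below, with a median log2 fold change of -0.07. Of the other mitochondrial members, Txn2, Txnrd2, Sod2 and Prdx5 had log2 fold changes of -0.07, -0.03, 0.05 and 0.04, so the value of Prdx3 was not shared by them. These mitochondrial genes were put together after their values were seen.

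Superoxide dismutases remove superoxide and catalase removes hydrogen peroxide. The cytosolic Sod1 was 115 and 119 CPM with CrAT and 82.2 and 136 CPM with MCS. The mitochondrial Sod2 was 205 and 208 CPM with CrAT and 183 and 216 CPM with MCS. Catalase (Cat) was 67.1 and 63.5 CPM against 66.5 and 61 CPM, with all 4 libraries close together. The extracellular Sod3 was the exception at 1.17 and 1.96 CPM with CrAT and 4.18 and 3.73 CPM with MCS. Its groups did not overlap and its log2 fold change of -1.33 (SE 0.52, unadjusted p = 0.0408, adjusted p = 1 in edgeR) was the lowest of the 35. It rests on 28 and 52 counts in CrAT and 104 and 103 counts in MCS.

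The ferritin subunits, which build the iron storage shell, overlapped between the groups. Ftl1 was 756 and 757 CPM with CrAT and 745 and 1082 CPM with MCS, and Fth1 was 1420.2 and 1160.5 CPM with CrAT and 1376 and 1615 CPM with MCS. MCS replicate 2 was the highest library for both. The log2 fold changes were -0.27 (SE 0.33) and -0.21 (SE 0.31), and without MCS replicate 2 they were 0.025 and -0.089. Fth1 was 1.49 to 1.88 times Ftl1 in counts, and per kilobase of exon 0.576 to 0.726 times. Replicates with the same number had nearly the same ratio in both groups, at 0.726 and 0.713 for replicate 1 and 0.592 and 0.576 for replicate 2. Ftl1 shares 26.5% of its exon bases with an antisense gene and has the copies Ftl1-ps1 and Ftl2-ps, with 1041 to 1531 and 1135 to 1464 counts, so its level is uncertain.

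Mt1 and Mt2 were lowest in CrAT replicate 2, and Mt3 was not set apart in this way. Mt1 was 2815 and 1202 CPM with CrAT and 2193 and 2671 CPM with MCS. Mt2 followed it at 179.9 and 68.5 CPM with CrAT and 137 and 139 CPM with MCS. For both, CrAT replicate 1 was the highest library and CrAT replicate 2 the lowest, 2.34 and 2.63 times apart. The log2 fold changes of -0.28 (SE 0.47) and -0.15 (SE 0.47) turned to 0.23 and 0.41 without CrAT replicate 2 and were -1.02 and -1.01 without CrAT replicate 1. The count ratio of Mt1 to Mt2 stayed at 15.6 to 19.3 in all 4 libraries.

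Mt3, the form enriched in the nervous system, did not follow them. It was 42 and 40.7 CPM with CrAT and 54.4 and 91.9 CPM with MCS. Both CrAT libraries were close to each other and below both MCS libraries, at a log2 fold change of -0.82 (SE 0.35, unadjusted p = 0.0532, adjusted p = 1 in edgeR). Without MCS replicate 2 it was -0.39. The count ratio of Mt1 to Mt3 was 67 in CrAT replicate 1 and 29.1 to 40.3 in the other libraries. In the promoter windows searched Mt3 has 1 match of the metal response element core, after the start site. Mt1 has 3, of which 1 lies before the start site, and Mt2 has 4, of which 3 lie before it. A relation of these matches to the levels was not tested.

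**Figure D4:**
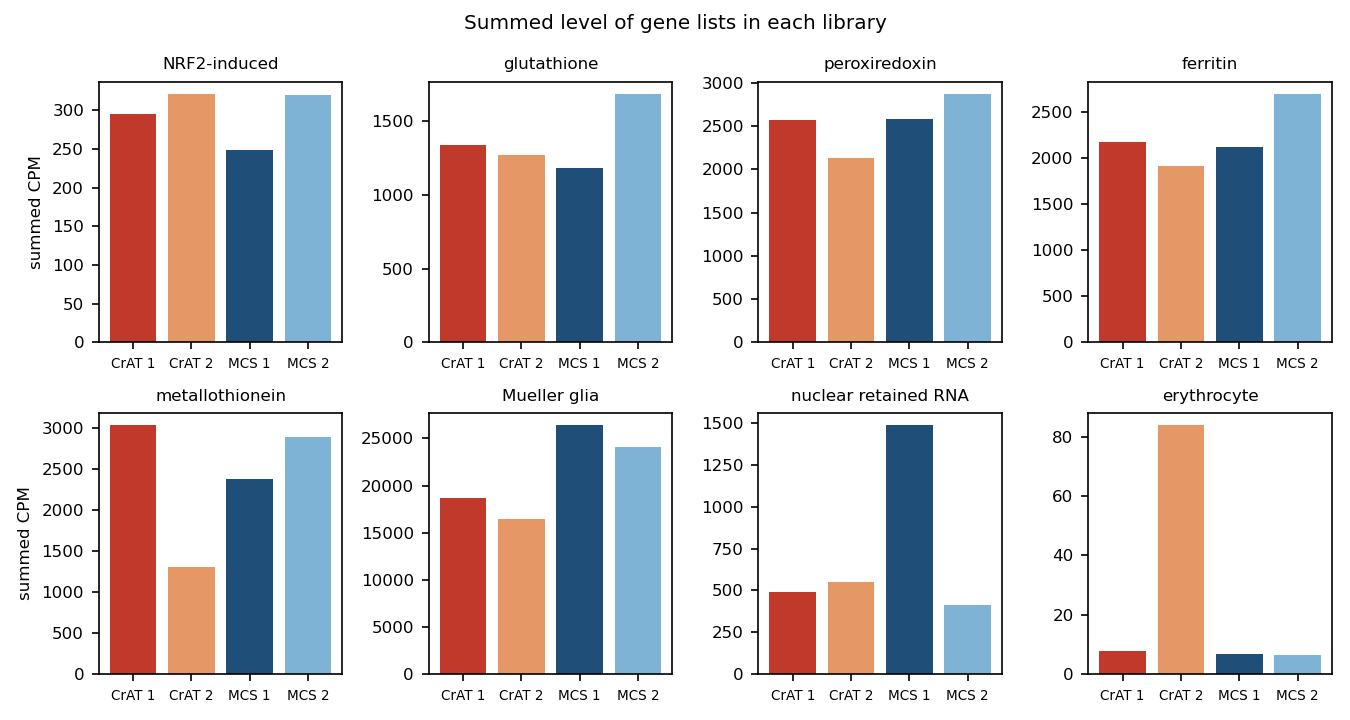
Summed level, in CPM, of 5 of the gene groups and of 3 lists of markers or RNA quality in each library, with bars from 0. Metallothioneins are lowest in CrAT replicate 2 at 1312 CPM, Mueller glia markers are lower in both CrAT libraries, nuclear retained RNA is highest in MCS replicate 1 at 1487 CPM, and erythrocyte transcripts are highest in CrAT replicate 2 at 83.8 CPM.

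Glial markers were lower in the same libraries as the members that were lower in CrAT. The 18 Mueller glia markers, all of which were detected, had totals of 18660.4 and 16443 CPM with CrAT and 26378 and 24114 CPM with MCS. Of these 16 had a log2 fold change below 0, with a median of -0.47, and in 11 the CrAT values were both lower than either MCS value, which was so for 16.6% of all genes. Glul, which makes glutamine in these glia, was 767 and 522 CPM with CrAT and 1496 and 1831 CPM with MCS. The 7 astrocyte markers tested of a list of 8 had a median of -0.53, and their sums were 1970 and 2073 CPM against 2436 and 2211 CPM. Gfap, the glial filament raised in gliosis, was 158 and 119 CPM against 252 and 209 CPM. Single markers ranged in log2 fold change from -1.37 to 0.40 in the Mueller glia list and from -1.35 to -0.02 in the astrocyte list. The part of glial content in the members' values was not tested.

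Other genes of the same pathways, taken from fixed lists that hold none of the 35, gave 0 calls at an adjusted p of 0.05 in edgeR and in DESeq2. At an unadjusted p under 0.05 edgeR had 0, 1, 3, 0 and 1 genes in the NRF2, glutathione, thioredoxin, iron and zinc lists, all lower in CrAT, where 2.87% of all genes were lower and 1.28% higher by that rule. Of 22 other regulators and targets of NRF2, 11 were above 0 and 11 below, with a median log2 fold change of 0.00. The carbonyl reductase Cbr3 had the smallest p, at 5.82 and 2.83 CPM with CrAT and 7.72 and 13.3 CPM with MCS (log2 fold change -1.28, SE 0.54). Cul3, the ubiquitin ligase scaffold that works with KEAP1, was 36.3 and 21.5 CPM against 39.7 and 49.5 CPM. The transporter Abcc4 had a log2 fold change of -1.69 (SE 1.05), at 0.419 and 0.113 CPM with CrAT and 1.33 and 0.398 CPM with MCS. Its groups overlapped, and CrAT replicate 2 was at the limit of 3 counts. Maff, a small partner of NRF2, had a log2 fold change of -0.86 (SE 0.62). It was low, at 0.88 and 0.717 CPM with CrAT and 1.61 and 1.3 CPM with MCS.

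Of 35 other glutathione genes 32 passed the filter on low counts, with a median of -0.14. The CrAT values were both lower than either MCS value in 12 of these and above in 3, beside 16.6% and 15.0% of all genes. Oplah, which recycles 5-oxoproline to glutamate, was 80.1 and 105 CPM with CrAT and 143 and 159.8 CPM with MCS (log2 fold change -0.71, SE 0.29, unadjusted p = 0.0477). The transferases Gstt3, Gsta3 and Mgst1 had log2 fold changes of -0.86, -1.18 and -0.63, with no overlap between the groups. Gsta3 was low, at 1.21 and 1.55 CPM with CrAT and 3.82 and 2.46 CPM with MCS. For the whole list the median was -0.37 without MCS replicate 1 and 0.21 without MCS replicate 2.

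The list of 22 other thioredoxin and selenoprotein genes had 16 below 0 and a median of -0.18. At an unadjusted p under 0.05 were 3, all lower in CrAT, beside 2.87% of all genes. Sesn3, a sestrin induced by FOXO factors, was 25.9 and 29 CPM with CrAT and 46.5 and 70.4 CPM with MCS (log2 fold change -1.09, SE 0.33). Selenop, which carries selenium, was 37.4 and 30.8 CPM with CrAT and 73.1 and 52.2 CPM with MCS (log2 fold change -0.88, SE 0.32). Selenot, a selenoprotein of the endoplasmic reticulum, had a log2 fold change of -0.97 (SE 0.36). Sesn1 had -0.34 (SE 0.29).

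Iron genes outside the ferritins had no shared direction. Of 26 genes for iron uptake, export and haem 25 passed the filter, 16 were above 0, and the median was 0.07. None had an unadjusted p under 0.05. As log2 fold changes, the mitochondrial iron carrier Slc25a28 had -0.64 (SE 0.42), the metalloreductase Steap2 0.41 (SE 0.28) and transferrin (Trf) -0.47 (SE 0.36). Trf was 987 and 1169 CPM with CrAT and 1834 and 1151 CPM with MCS, highest in MCS replicate 1. Among 15 zinc handling genes the median was -0.04. The zinc importer Slc39a1 was 6.24 and 7.88 CPM with CrAT and 13.8 and 20.1 CPM with MCS (log2 fold change -1.26, SE 0.41, unadjusted p = 0.02). Slc30a10 had -1.07 (SE 0.47) and Slc39a13 -0.38 (SE 0.31). Slc30a10 was low, at 1.76 and 2.04 CPM with CrAT and 3.62 and 4.38 CPM with MCS. Slc30a1, a zinc exporter that MTF1 induces together with metallothioneins, had 0.52 (SE 0.56). It was also low, at 1.8 and 1.58 CPM with CrAT and 1.13 and 1.23 CPM with MCS.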

How the data were processed

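RNA of 4 libraries was analysed. Per the labels' protocols, a Qiagen kit for small amounts gave the RNA, and a SMART-seq kit, which does not mark the strand, gave the cDNA. Per the submitters' processing notes, STAR 2.7.2b was among the tools, and mm10 and GRCm38.p6 are the builds listed. The counter's settings were not given in the sources used here. Per the files, the authors deposited estimated counts per gene, rounded to whole numbers, and FPKM values per gene. Deposited FPKM times exon length gave values within 0.5 of the counts after scaling by the library, and 41.9% to 43.2% of these estimates above 0 departed from a whole number by over 0.02. Whole counts were assumed in the planned test, which was kept. The start and end positions in the tables were not used as coordinates. Each table also held 2 columns of other samples, 4 in all, which were not used.

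Genes were kept by edgeR 4.0.16's filterByExpr, which left 19638 of 56493, scaled by TMM and tested with edgeR's quasi-likelihood F test in R 4.3.3 (robust fit, no covariate, 2 residual degrees of freedom, two-sided, Benjamini-Hochberg adjustment over all genes, threshold 0.05). SE is the log2 fold change over the square root of F. CPM are counts scaled to a common library size after TMM, and log2 CPM uses a prior count of 2. DESeq2 1.42.0 was an alternative. With 2 libraries a group, 0.333 is the smallest two-sided p of an exact permutation test, so none is printed. The procedure was tested on simulated data, where small fold changes were rarely called and very large ones mostly were, so the lack of calls does not show that genes were equal. Within each group the replicates did not look like 1 library deposited more than once. They differed by more than counting noise (chi-square over degrees of freedom 77.5 in CrAT and 131 in MCS). Libraries of different groups were not compared in this way. This does not show that they are separate animals.

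The members, lists and tests were chosen with earlier results of these data known. All 35 members are named, of each other pathway list the 4 genes with the smallest p (1 gene is not reported here), and of the marker lists Glul and Gfap, beside Crat. The other marker genes of that rule were Rbpms, Gad1, Gnat1 and C1qa. Pou4f2, Thy1, Nefl, Cdh5, Kdr, Flt1, Pecam1, Hba-a1, Hbb-bs and Alas2 were named outside that rule, with earlier results known. Coordinates and promoters are from RefSeq on GRCm38.p6.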

Additional observations from a re-analysis of the deposited data

How the results depend on the processing

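No member passed the threshold under any of the alternatives run. Over all genes edgeR called 0, with 815 at an unadjusted p under 0.05. DESeq2 called 32 higher and 18 lower in CrAT, and edgeR without the filter on low counts called 2 higher, Apol6 and H2-Aa, neither of them a member and both named after their values were seen. The scaling by DESeq2's size factors turned no member's sign. Over the fits without 1 library each, the median log2 fold change of NRF2-induced ranged from -0.38 to 0.11, of metallothionein ranged from -1.01 to 0.23, of the 35 genes ranged from -0.30 to 0.0074, of thioredoxin ranged from -0.27 to 0.21, of superoxide dismutase and catalase ranged from -0.14 to 0.077, of ferritin ranged from -0.42 to -0.032. The medians of NRF2 and KEAP1, glutathione and peroxiredoxin, which moved by less than the replicate spread, also crossed 0, at -0.34 to 0.10, -0.31 to 0.24 and -0.25 to 0.15. The log2 fold changes that turned sign in at least 1 of these fits ranged from -0.76 to 3.08 for Hmox1, -0.30 to 0.47 for Gclm, -0.023 to 0.099 for Cat, -0.43 to 0.52 for Nfe2l2, -0.38 to 0.25 for Txnrd1, -0.40 to 0.04 for Prdx1, -0.31 to 0.50 for Prdx5, -1.02 to 0.23 for Mt1, -1.01 to 0.41 for Mt2, -0.0015 to 0.93 for Srxn1, -0.12 to 0.51 for Gstp1, -0.16 to 0.37 for Txn1, -0.17 to 0.46 for Prdx2, -0.21 to 0.51 for Sod1, -0.06 to 0.18 for Sod2, -0.31 to 0.32 for Gpx1, -1.05 to 0.0041 for Gpx3, -0.37 to 0.15 for Gpx4, -0.36 to 0.29 for Txn2, -0.17 to 0.14 for Txnrd2, -0.51 to 0.025 for Ftl1. With library totals only, the sign turned for Gclm (-0.025), Prdx5 (-0.017), Sod2 (-0.0017), Cat (-0.019). With the replicate number as a block, the sign turned for Nfe2l2 (0.005), Gpx1 (0.0019). The replicate numbers are not tied to a shared animal or batch in the labels. Same-numbered libraries deviated together (correlation 0.389 across genes), but this is 1 comparison of 2 pairs. With the block 1922 genes had an unadjusted p under 0.05 and no gene passed the threshold. With 1 library left out, the lone library of its group is assumed to vary like the others. Genes with few counts, such as Sod3, and genes with an overlapping antisense partner are the least certain.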

Other observations

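The deposited counts of Mt2 and Gpx1 were close to those of an annotated partner that overlaps each of them. Mt2 had 4295 and 1817 counts in CrAT and 3397 and 3827 in MCS, and Gm45774, a noncoding gene on the opposite strand that covers 73.5% of its exon bases, had 4095 and 1763 in CrAT and 3217 and 3647 in MCS. For Gpx1, with 1419 and 1583 counts in CrAT and 1187 and 2045 in MCS, the partner Gm57050 had 1263 and 1399 in CrAT and 1029 and 1749 in MCS. The level of such a member relative to the other genes is therefore uncertain, whichever rule divided the reads.

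Haemoglobin transcripts differed between the CrAT libraries. Hba-a1 had 58 and 840 counts in CrAT and 60 and 63 in MCS, and Hbb-bs had 39 and 404 against 21 and 28. The erythroid haem synthesis gene Alas2 had 3 and 26 counts in CrAT and 9 and 13 in MCS. CrAT replicate 2, the library high in these, was also the lowest in Mt1, Mt2, Fth1, Prdx1, Prdx4, Prdx6, Gstm1, Osgin1 and Mt3. For Mt3 it was lowest by little, at 40.7 CPM against 42 CPM in CrAT replicate 1. Whether these values are related was not tested.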
